A study of Homo sapiens with 2 samples.

Results

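The genes described here encode proteins that place, copy, read and remove DNA methylation. They comprise the methyltransferase family genes DNMT1, DNMT3A, DNMT3B and DNMT3L and the UHRF genes UHRF1 and UHRF2. The others are the dioxygenase genes TET1, TET2 and TET3 and the thymine DNA glycosylase gene TDG. All these genes were found by gene symbol, 1 row each in both deposited tables. They are 10 of 51609 symbols with a value in both libraries, and none of them had a failed estimate. RNA was sequenced as paired-end libraries from 2 cultures of HCT116, an epithelial cell line from a human colon cancer that lacks DNA mismatch repair and keeps wild-type p53. The labels name no treatment or genetic change for either culture; the cells grew in serum-containing medium and are described as biological replicates of 1 group and named PJ and PF in the labels, which do not say what the letters mean. The normal colon libraries that the design text names were not analysed here, so no gene was compared with normal tissue.

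DNA methylation in mammals is set on cytosines that precede a guanine (CpG). DNMT3A and DNMT3B methylate unmethylated sites, helped in germ cells by DNMT3L, which has no catalytic activity of its own. At each replication, UHRF1 recognises the half-methylated CpG and brings in DNMT1, which copies the mark onto the new strand. TET enzymes oxidise the methyl group, and TDG cuts out the more oxidised forms so that base excision repair can restore an unmethylated cytosine. HCT116 is a much used line for this machinery, since derivatives without DNMT1 and DNMT3B were made from it; the cells measured here have no such change in their labels.

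Values are FPKM, fragments per kilobase of a transcript relative to all mapped fragments, so that genes are compared per length, and the range after a value gives the deposited 95% bounds. FPKM summed to 3492960 in PJ and 3053270 in PF; the sequencing depth is unknown. The median ratio of PJ to PF over all expressed symbols was 1.19, or 0.25 on the log2 scale, so most of these symbols had higher values in PJ. Over genes that span 200 bases or more, FPKM summed to 720853 in PJ and 706602 in PF, so most of either total came from shorter genes. Of 6 epithelial markers, 5 were expressed, a term used here for 1 FPKM or more in PJ and in PF, led by KRT8, KRT19 and KRT18. CDH1, the E-cadherin gene, was at 1.80 FPKM in PJ and 21.9 in PF, and VIL1, the villin gene, was under 1 in both; the part of such library differences in the results was not tested. The 6 markers of fibroblasts and blood cells summed to 0.328 FPKM in PJ and 0.28 in PF, and the highest of them was CD79A at 0.281 in PJ.

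HCT116 cells expressed 8 of the 10 genes. Of all symbols 27.9% passed that threshold, and of protein-coding symbols 56.8%. The maintenance pair, DNMT1 and UHRF1, stood first and second in each library, and TET1 and DNMT3L stood last. DNMT1, UHRF1, UHRF2 and TDG were above 10 FPKM in both libraries. DNMT3B, TET3, DNMT3A and TET2 lay between 1.98 and 10.8 FPKM.

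**Figure D1:**
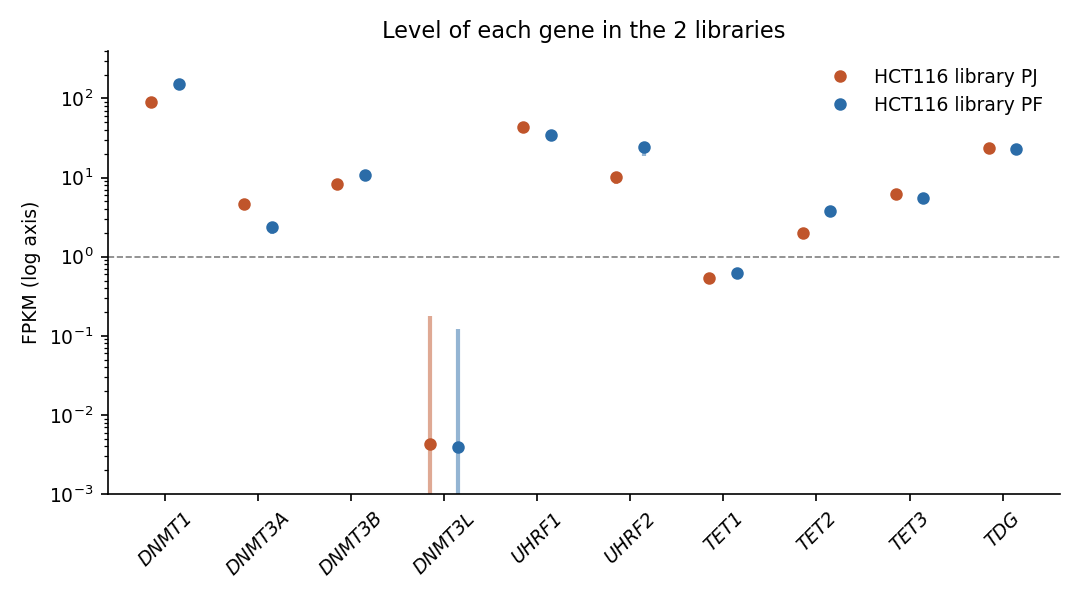
FPKM of each gene on a log axis, with 1 point per HCT116 library (PJ left, PF right), a vertical bar for the deposited 95% bounds and a dashed line at 1 FPKM. DNMT1 is highest at 89.6 FPKM in PJ and 150.2 in PF, TET1 lies just under the line, and the bounds of DNMT3L reach 0, which a log axis cannot show.

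DNMT1 (ENSG00000130816.10; hg19 chromosome 19, 10244021 to 10341962), the maintenance methyltransferase gene, was at 89.6 FPKM in PJ (87.4 to 94.6) and 150.2 in PF (145 to 158). PJ was the lower library and its bounds did not reach those of PF. The mean was 119.9 ± 42.8 FPKM (SD, n = 2), and DNMT1 ranked at the 94.0 percentile of protein-coding symbols in PJ and the 97.3 percentile in PF. The span of DNMT1 in the tables covers both rows of S1PR2, a receptor gene on the same strand. These rows stood at 2.69 and 2.52 FPKM in PJ and 2.28 and 1.99 in PF, far under DNMT1.

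UHRF1 (ENSG00000034063.8; chromosome 19, 4903092 to 4962165), which reads the half-methylated CpG, was at 43.5 FPKM in PJ (42.7 to 45.3) and 34.8 in PF (33.9 to 36.3). As deposited, UHRF1 was thus higher in PJ, opposite to DNMT1, and its bounds were also apart. Its log2 ratio of FPKM + 1, PJ over PF, was 0.31, but 0.07 with the median ratio of all genes divided out. The ratio of DNMT1 to UHRF1 within a library, which does not depend on the library's scaling, was 2.06 in PJ and 4.32 in PF. The mean of UHRF1 was 39.1 ± 6.14 FPKM (SD, n = 2).

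UHRF2 (ENSG00000147854.11; chromosome 9, 6413151 to 6507054), the paralog of UHRF1, a ubiquitin ligase gene that does not replace UHRF1 in maintenance, was at 10.1 FPKM in PJ (8.40 to 10.6) and 24.3 in PF (18.5 to 21.9). The PF estimate lay above its own upper bound, the only one of the 20 member estimates outside its bounds. Such estimates also occurred among the related genes described below, as for KIAA0101 and APOBEC3C in both libraries. UHRF2 in PJ was 41.6% of its level in PF, the widest gap by ratio among the 10 genes. UHRF1 exceeded UHRF2 in both libraries, 4.30 times in PJ and 1.43 times in PF, and UHRF2 made up 18.9% of the UHRF total in PJ and 41.1% in PF. Its processed pseudogene UHRF2P1 on chromosome X was at 0.282 FPKM in PJ and 0.329 in PF, and the genes overlapping UHRF2 were at 0 to 3 decimals.

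The promoter windows of 4 of these genes are printed because they set the pair with the highest levels, DNMT1 and UHRF1, beside UHRF2, the gene that differed most by ratio between the libraries, and TET1, the lowest of the genes that were measured clear of 0. They run from 250 bases before to 50 after the annotated start, were taken from RefSeq (GRCh38.p14, not the build of the tables), and are the first window listed for each gene, in the direction of the gene. Capitals mark any of the letters TTTCCCGC, TTTCGCGC, TTTGCCGC or TTTGGCGC on either strand, a core recognised by E2F factors, the regulators of replication genes.
DNMT1: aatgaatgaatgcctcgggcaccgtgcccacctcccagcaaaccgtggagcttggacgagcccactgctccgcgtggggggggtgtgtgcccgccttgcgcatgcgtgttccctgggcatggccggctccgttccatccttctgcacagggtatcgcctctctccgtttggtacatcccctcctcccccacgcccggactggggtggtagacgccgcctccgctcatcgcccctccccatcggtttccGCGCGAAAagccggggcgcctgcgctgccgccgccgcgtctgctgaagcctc
UHRF1: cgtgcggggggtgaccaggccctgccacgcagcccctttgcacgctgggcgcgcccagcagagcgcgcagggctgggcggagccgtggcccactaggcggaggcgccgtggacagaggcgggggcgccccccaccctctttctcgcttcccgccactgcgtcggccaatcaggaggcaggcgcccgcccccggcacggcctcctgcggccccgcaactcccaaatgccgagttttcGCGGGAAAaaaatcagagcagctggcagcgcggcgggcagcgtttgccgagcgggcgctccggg
UHRF2: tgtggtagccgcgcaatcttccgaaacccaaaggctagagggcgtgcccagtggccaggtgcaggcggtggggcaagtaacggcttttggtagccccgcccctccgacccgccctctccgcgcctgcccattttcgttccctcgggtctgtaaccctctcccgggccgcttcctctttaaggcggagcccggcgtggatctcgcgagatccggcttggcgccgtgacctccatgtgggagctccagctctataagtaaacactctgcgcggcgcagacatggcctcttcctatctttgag
TET1: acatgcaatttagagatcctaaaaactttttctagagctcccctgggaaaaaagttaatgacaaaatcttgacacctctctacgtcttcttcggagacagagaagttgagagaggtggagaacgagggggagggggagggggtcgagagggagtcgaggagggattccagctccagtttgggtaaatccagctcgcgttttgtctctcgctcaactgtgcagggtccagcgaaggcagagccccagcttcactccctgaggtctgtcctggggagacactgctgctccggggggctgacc
The windows lie at chr19:10194904-10195203 on the minus strand for DNMT1, chr19:4909251-4909550 for UHRF1, chr9:6412949-6413248 for UHRF2 and chr10:68560087-68560386 for TET1, the last 3 on the plus strand. DNMT1 and UHRF1 each held 1 match, as the reverse complement of the letters, while the UHRF2 and TET1 windows held none. Across the 9 genes with a window, 3 of 20 windows had a match, 1 of DNMT1 and 2 of the 3 of UHRF1, and 3.31% of all 35116 windows had one. These are matches of letters in short windows and not binding sites.

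CpG dinucleotides, the substrate of these enzymes, numbered 30 in the DNMT1 window, 36 in UHRF1, 26 in UHRF2 and 10 in TET1, against a median of 14 over all windows. Over the 20 windows of the 9 genes the number ran from 3, in the single window of DNMT3B, to 46, in 1 of the 6 windows of DNMT3A and 1 of UHRF1. The DNMT3B window lies at chr20:32779602-32779901 of GRCh38.p14. Whether it sits at the start of the hg19 span that was quantified was not tested, so its count describes that window only. The tables give 1 value per gene, so which of several starts was used is not known.

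The de novo enzyme genes were far lower than DNMT1. DNMT3B (ENSG00000088305.13; chromosome 20, 31350191 to 31397162) was at 8.22 FPKM in PJ (7.67 to 8.77) and 10.8 in PF (10.2 to 11.5). DNMT3A (ENSG00000119772.12; chromosome 2, 25455845 to 25565459) was at 4.62 FPKM in PJ (3.90 to 5.30) and 2.34 in PF (1.92 to 2.75). The pair thus differed in opposite directions between the libraries, DNMT3B lower and DNMT3A higher in PJ, each with bounds apart. DNMT3B exceeded DNMT3A 1.78 times in PJ and 4.62 times in PF, and DNMT3B made up 64.0% of the sum of both in PJ and 82.2% in PF. Of the summed FPKM of the DNMT genes, DNMT1 carried 87.5% in PJ and 91.9% in PF. DNMT3A and DNMT3B each give rise to several isoforms, some of DNMT3B without enzyme activity, which a value per gene does not separate.

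DNMT3L (ENSG00000142182.4; chromosome 21, 45666222 to 45682099), the germ-cell cofactor gene, was at 0.00431 FPKM in PJ (0 to 0.177) and 0.00394 in PF (0 to 0.121). The lower bounds of 0 mean that it was not detectable at this depth. An antisense gene inside it, AP001059.5, was at 0.067 FPKM in PJ and listed at 0 in PF.

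**Figure D2:**
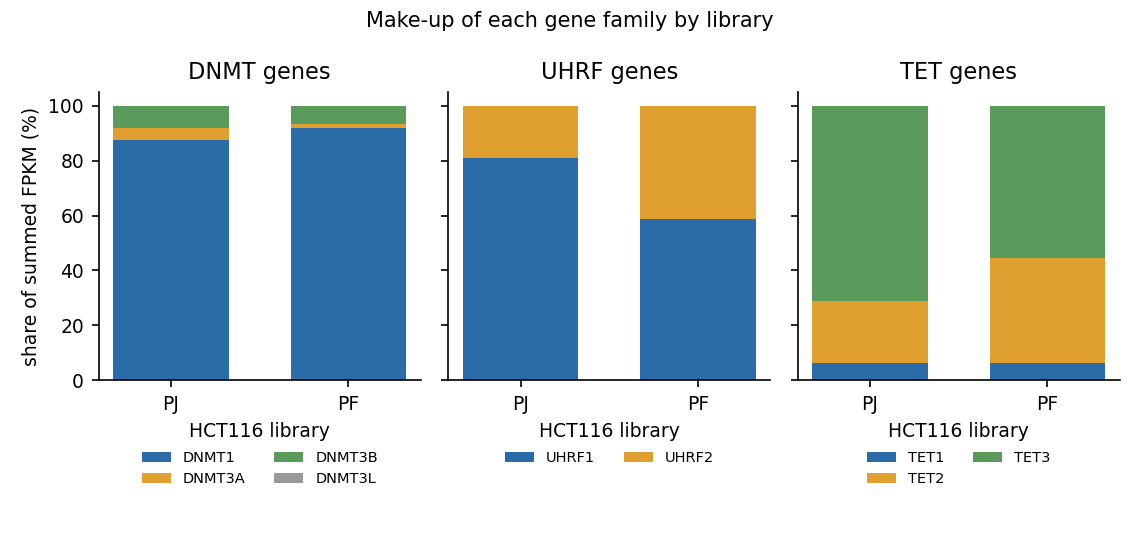
Stacked bars of the share (%) of the summed FPKM of each family in HCT116 libraries PJ (left) and PF (right), with 1 panel each for the DNMT, UHRF and TET genes. DNMT1 fills most of the DNMT bar in both libraries, UHRF2 takes 18.9% of the UHRF bar in PJ and 41.1% in PF, and TET3 takes 71.2% of the TET bar in PJ and 55.4% in PF.

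Among the erasers TET3 was highest, then TET2 and then TET1, in both libraries. TET3 (ENSG00000187605.10; chromosome 2, 74229840 to 74329698) was at 6.26 FPKM in PJ (5.81 to 6.71) and 5.50 in PF (5.11 to 5.90), with overlapping bounds. TET2 (ENSG00000168769.8; chromosome 4, 106067032 to 106200973), a gene often mutated in blood cancers, was at 1.98 FPKM in PJ (1.76 to 2.27) and 3.80 in PF (3.54 to 4.06). Its bounds were apart, and TET2 in PJ was 52.2% of its level in PF. TET2 held 22.6% of the TET total in PJ and 38.3% in PF, while TET1 held 6.20% in PJ and 6.26% in PF. The TET total itself was 8.79 FPKM in PJ and 9.92 in PF.

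TET1 (ENSG00000138336.8; chromosome 10, 70320413 to 70454239), a TET gene best known from embryonic stem cells, was at 0.545 FPKM in PJ (0.47 to 0.62) and 0.621 in PF (0.543 to 0.70). It missed the threshold in each library, though its bounds excluded 0. A processed pseudogene of 357 bases on the same strand inside TET1, RP11-119F7.2, was listed at 36.9 FPKM in PJ and 34.7 in PF, each above its own upper bound. Whether fragments were shared between the pseudogene and TET1 was not tested.

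TDG (ENSG00000139372.10; chromosome 12, 104359582 to 104382652), the glycosylase gene that completes removal after TET, was at 23.7 FPKM in PJ (22.5 to 24.9) and 22.8 in PF (21.6 to 24.1). As deposited, this was the smallest difference by ratio among the 8 expressed genes, with PJ at 103.6% of PF, whereas in FPKM TET3 differed less. The mean of TDG was 23.2 ± 0.586 FPKM (SD, n = 2). The value is uncertain, because the processed pseudogene TDGP1 (RP11-443N24.1 in the tables, chromosome 12) was listed at a level close to that of TDG. TDGP1 was at 21.7 FPKM in PJ, under TDG, and at 24.5 in PF, above TDG. How fragments that match both copies were divided is not given in the sources used here.

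In order of the mean the genes ran DNMT1, UHRF1, TDG, UHRF2, DNMT3B, TET3, DNMT3A, TET2, TET1 and DNMT3L. TDG and UHRF2, and DNMT3A and TET2, are neighbours that changed places between the libraries and cannot be ranked. UHRF2 stood under TDG in PJ and above it in PF, and TET2 stood under DNMT3A in PJ and above it in PF. All other neighbours kept their order within each library, although UHRF2 in PJ, at 10.1 FPKM, was under DNMT3B in PF, at 10.8.

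The difference between the libraries was read as the log2 ratio of FPKM plus a pseudocount of 1, PJ over PF, for symbols whose mean reached 1 FPKM. It has no test, since each side is 1 library. UHRF2 was the only member at least 2-fold apart, at -1.19. Lower by 2-fold or more in PJ were thus 1 of 8 members, beside 5.22% of all symbols, and higher by 2-fold or more 0 of 8, beside 10.4%. DNMT3A was at 0.75, UHRF1 at 0.31, TET3 at 0.16, TDG at 0.05, DNMT3B at -0.36, TET2 at -0.69 and DNMT1 at -0.74. The median over the 8 members was -0.15, beside 0.22 over all symbols tested.

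With the median ratio of all genes divided out, UHRF2 was at -1.41, DNMT1 at -0.98 and TET2 at -0.85, while DNMT3A was at 0.55 and UHRF1 at 0.07. TET3 and TDG then changed sign, to -0.05 and -0.19, as did DNMT3L, which stayed at 0.00 to 2 decimals. On that scale UHRF2 was again the only member called, beside 7.24% of all symbols called lower. As deposited and without rescaling, the 95% bounds of the libraries were apart for 6 of 8 members and for 62.7% of all symbols. Separated bounds were thus common throughout these libraries. UHRF2 did not reach 2-fold when the nearest bounds of the libraries were used in place of the estimates, which gave -0.75; this alternative was added after seeing the data.

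**Figure D3:**
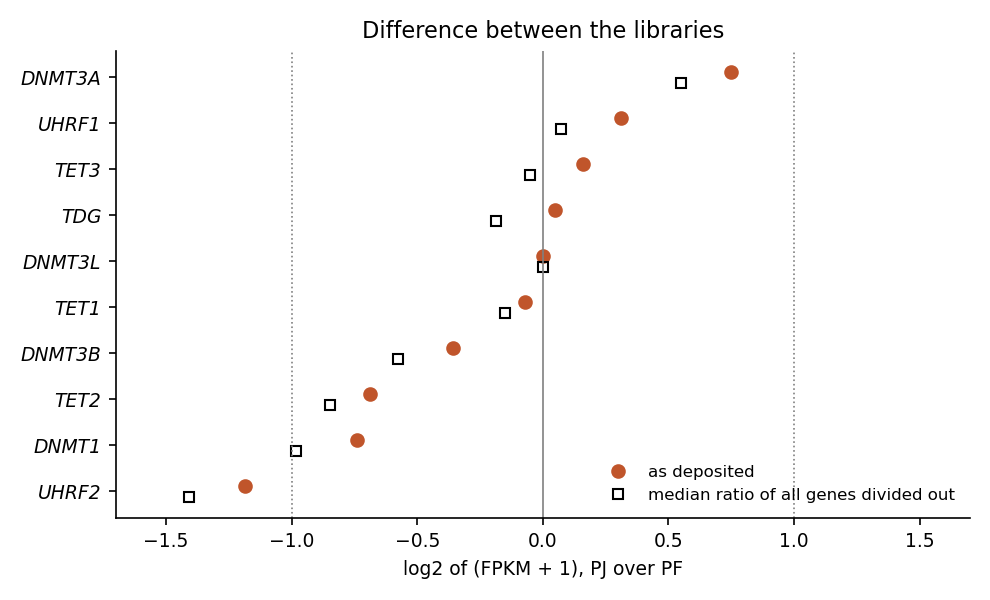
Log2 ratio of FPKM + 1, PJ over PF, for each gene, as deposited (filled circles) and with the median ratio of all genes divided out (open squares); dotted lines mark 2-fold. UHRF2 lies beyond the lower line on both scales at -1.19 and -1.41, and DNMT1 lies just inside it at -0.98 once the median is divided out.

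**Figure D4:**
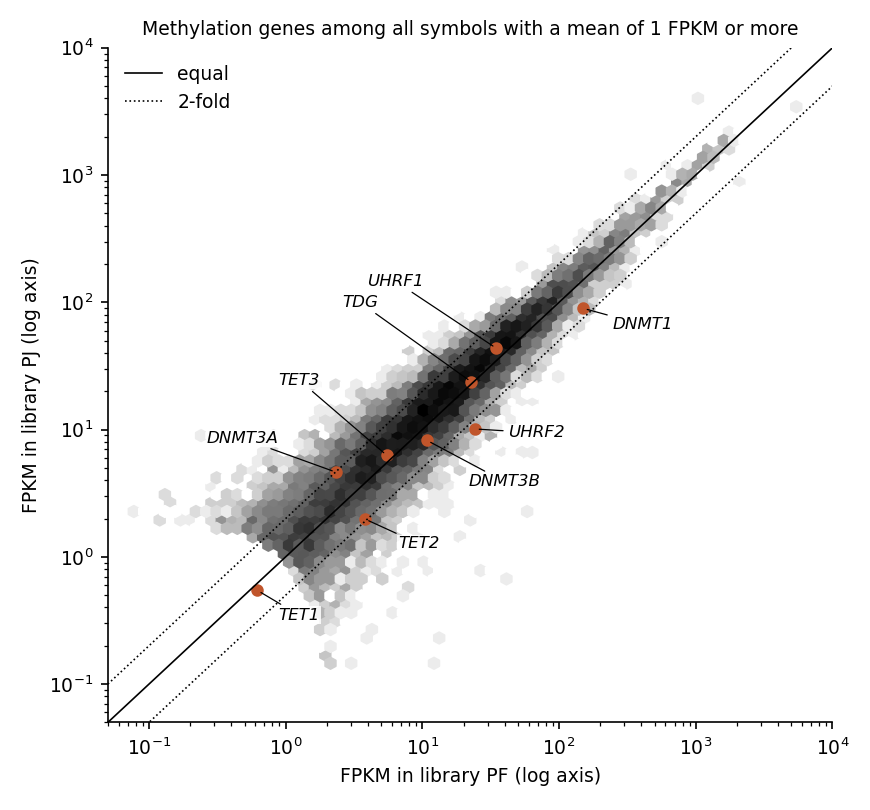
FPKM in PJ (vertical) against PF (horizontal) on log axes, with darker hexagons where more symbols lie (mean of at least 1 FPKM), and points for the methylation genes except DNMT3L, which is too low for the axes. The lines mark equal values and a 2-fold ratio of FPKM without a pseudocount; UHRF2 lies under the lower 2-fold line, and TDG and TET3 lie near the line of equality.

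Genes that work with these proteins were read from 10 lists chosen by role, of which 106 of 140 measured genes were expressed. The expressed share to set beside this count and each list below was 27.9% of all symbols and 56.8% of protein-coding symbols. Of these 106 genes, 5 were at least 2-fold higher in PJ, beside 10.4% of all symbols, and 4 at least 2-fold lower, beside 5.22%. With the median ratio of all genes divided out, 4 were at least 2-fold higher, beside 6.22% of all symbols, and 9 at least 2-fold lower, beside 7.24%. All 11 maintenance partners passed the threshold, led by PCNA, the replication clamp gene, at 264 FPKM in PJ and 457 in PF. KIAA0101, a PCNA-associated factor gene, was at 105 in PJ and 133 in PF, and CDCA7L at 73.9 in PJ and 69.1 in PF. The lowest was ZBTB24, a zinc finger gene, at 7.49 FPKM in PJ and 6.86 in PF. As deposited, no maintenance partner was 2-fold apart and the list's median log2 ratio was 0.09. With the median ratio of all genes divided out, PCNA was at -1.03 and the list's median at -0.15. The ratio of DNMT1 to PCNA was 0.339 in PJ and 0.329 in PF, whereas that of UHRF1 to PCNA was 0.164 in PJ and 0.0762 in PF. PCNA itself was at -0.79 as deposited, beside a median of -0.21 over the replication genes of S phase. Both ratios thus describe PCNA alone and not replication genes as a set.

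Replication genes of S phase passed in 19 of 19 measured cases. As deposited, 13 had lower and 6 higher values in PJ, with a median log2 ratio of -0.21; with the median ratio of all genes divided out, these counts were 16 and 3 and the median was -0.46. Besides PCNA the highest were TYMS, the thymidylate synthase gene, at 266 FPKM in PJ and 296 in PF, and MCM7, for a replicative helicase subunit, at 229 in PJ and 274 in PF; the lowest was POLA1, for DNA polymerase alpha, at 13.0 in PJ and 11.1 in PF. E2F2, an E2F factor gene, was the only one 2-fold apart as deposited, at 11.3 FPKM in PJ and 30.3 in PF. With the median ratio divided out, E2F1, at -1.19, MCM4, at -1.14, and PCNA were also lower in PJ by 2-fold or more. On levels over the 2 libraries, the genes of the lists nearest to DNMT1 were PARP1, KIAA0101 and MCM5 (Euclidean distances of log2(FPKM + 1) of 0.24, 0.29 and 0.29 among 152 genes). These 152 genes are those measured in the 10 lists together with the markers of epithelium, fibroblasts and blood cells. Nearest to UHRF1 were CDCA7, MAT2B and EZH2 (0.16, 0.17 and 0.23), and nearest to UHRF2 were E2F2, APOBEC3C and HLTF (0.34, 0.55 and 0.59).

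Partners of de novo methylation and readers of histone marks passed in 11 of 13 measured cases. TRIM28, the corepressor gene of zinc finger proteins, was highest at 566 FPKM in PJ and 512 in PF, followed by the Polycomb genes EZH2, at 50.9 in PJ and 33.5 in PF, and EED, at 22.9 in PJ and 16.5 in PF. DPPA3, a germ-cell gene, was lowest at 0.00805 FPKM in PJ and 0.0127 in PF. MORC2, a chromatin silencing gene, was 2-fold higher in PJ, at 17.4 FPKM against 6.51 in PF.

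All 12 genes for methyl-CpG binding and related proteins passed. MBD3 led at 49.3 FPKM in PJ and 40.3 in PF, though its protein binds methylated DNA poorly in mammals, ahead of MBD2, at 33.1 in PJ and 28.9 in PF, and BAZ2A, at 30.1 in PJ and 29.2 in PF. ZBTB4 was lowest at 4.86 FPKM in PJ and 1.51 in PF, and was the only one 2-fold apart on either scale.

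The genes of base excision repair, a list that holds other glycosylase genes as well as genes that act after a glycosylase, passed in 13 of 13 cases. They had the highest list median of the log2 ratio at 0.55, or 0.31 with the median ratio of all genes divided out. APEX1, the endonuclease gene that acts after a glycosylase, was at 257 FPKM in PJ and 174 in PF, PARP1 at 82.1 in PJ and 131 in PF, and UNG, the uracil glycosylase gene, at 101 in PJ and 85.6 in PF. NEIL1 was lowest at 3.92 FPKM in PJ and 7.89 in PF, and NEIL3 was the only one 2-fold apart as deposited, at 13.7 in PJ and 4.55 in PF. With the median ratio divided out, NEIL1 was at -1.05 and thus also past 2-fold. MBD4, the other glycosylase gene for G:T mismatches, was at 14.8 FPKM in PJ and 8.29 in PF, so TDG exceeded it 1.60 times in PJ and 2.75 times in PF.

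Of 15 genes for TET cofactors and partners 13 passed. The isocitrate dehydrogenase genes IDH3B, at 98.3 FPKM in PJ and 92.3 in PF, and IDH3A, at 75.4 in PJ and 50.9 in PF, and GADD45A, at 40.8 in PJ and 97.7 in PF, were highest, and GADD45A, a p53 target gene, was the only one 2-fold apart as deposited. IDH2 was at -1.15, also past 2-fold, with the median ratio divided out. GADD45G was lowest at 0.053 FPKM in PJ and 0.44 in PF. Cytidine deaminase genes passed in 3 of 8 cases, or 37.5%, beside 56.8% of protein-coding symbols. APOBEC3C, at 14.2 FPKM in PJ and 30.7 in PF, and APOBEC3B, at 15.5 in PJ and 10.7 in PF, passed. So did APOBEC3F, at 4.39 in PJ and 2.33 in PF. APOBEC3 genes are similar in sequence, and whether fragments were shared among them was not tested. APOBEC1, an RNA-editing deaminase gene, was lowest at 0.00332 FPKM in PJ and 0.0101 in PF.

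Methyl donor supply genes passed in 11 of 14 cases. AHCY, for the enzyme that clears the product of every methyl transfer, was at 182 FPKM in PJ and 152 in PF. MAT2A, for the enzyme that makes the methyl donor S-adenosylmethionine outside liver, was at 93.8 FPKM in PJ and 43.0 in PF and was the only one 2-fold apart as deposited. MAT2A was at 0.86, under 2-fold, with the median ratio divided out. MTAP was at 45.5 in PJ and 72.5 in PF, and the lowest, BHMT, at 0.0445 FPKM in PJ and 8.48e-06 in PF.

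Genes whose promoter methylation is used as a marker in colorectal cancer passed in 13 of 30 cases, or 43.3%, beside 56.8% of protein-coding symbols. Their methylation was not measured here. CDKN2A, which includes p16, was at 186 FPKM in PJ and 93.5 in PF, a value per gene that does not separate its transcripts. SEPT9 was at 82.2 in PJ and 123 in PF. VIM, the vimentin gene, was at 126 in PJ and 4.91 in PF, the largest difference by log2 ratio in any of these lists. MGMT, for a DNA repair methyltransferase, was 2-fold lower in PJ, at 2.96 FPKM against 8.37 in PF. NEUROG1, a neurogenic factor gene, was listed at 0 in both libraries.

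**Figure D5:**
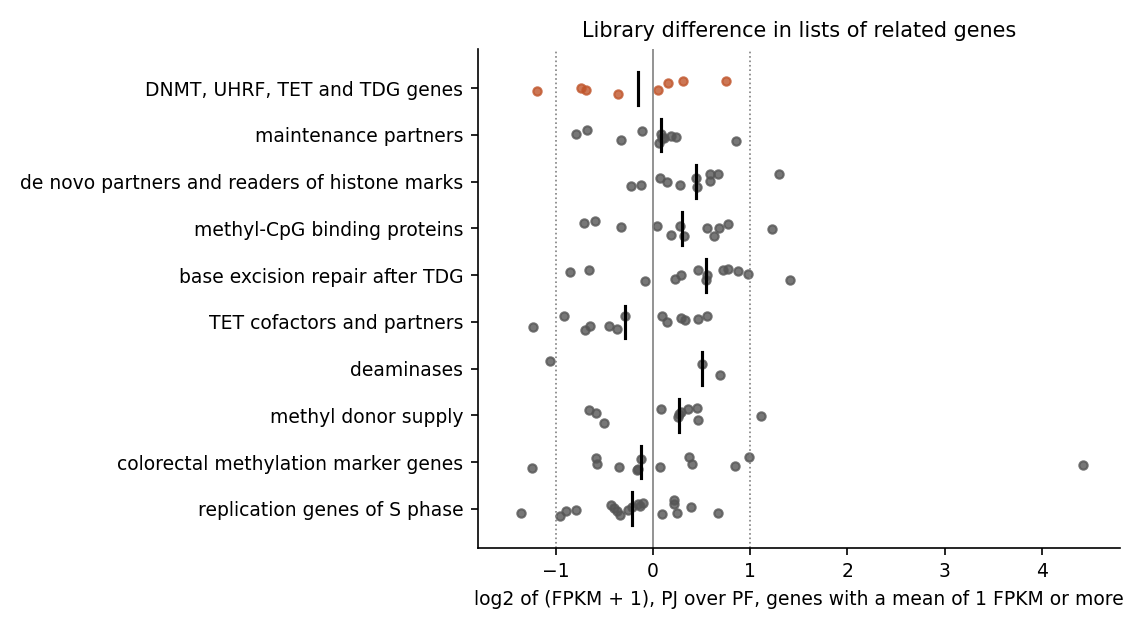
Log2 ratio of FPKM + 1, PJ over PF, of every gene whose mean reached 1 FPKM (points) in each list, with a black bar at the list's median and dotted lines at 2-fold. The methylation genes, in the top row, spread from -1.19 to 0.75 around a median of -0.15, and VIM stands apart among the colorectal methylation markers.

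Among relatives of the 10 genes, TRDMT1, once called DNMT2 and now known as a tRNA methyltransferase, was at 5.50 FPKM in PJ and 2.67 in PF, with bounds apart. The pseudogenes DNMT3AP1 and TET1P1 were at no more than 0.0105 FPKM in either library, and TET2-AS1, antisense to TET2, was at 0 in PJ and not above 0 to 3 decimals in PF.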

How the data were processed

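For each library the authors deposited gene-level FPKM with 95% bounds and an estimation status, per the file headers. Alignment and quantification used TopHat2 2.0.8b and Cufflinks on hg19, per the submitters' processing notes; the sources used here do not give the Cufflinks version, the annotation release or the handling of strand and of multiply mapped fragments. Rows with status FAIL (20 in PJ, 23 in PF), listed at 0, were set to missing, and rows that share a symbol were summed. Coordinates are from the tables, with starts counted from 1. Gene type came from GENCODE release 29, matched by identifier for 50211 of 56586 rows and by symbol for 2201 more. Because the files hold FPKM and 1 group of 2 libraries, levels and differences are described, with no p-value; expressed means 1 FPKM or more in both libraries, and a difference was called at 2-fold on FPKM plus 1 among symbols whose mean reached 1 FPKM.

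All 10 members are named. Of each list the 3 highest means, the lowest, and up to 2 genes in each direction at least 2-fold apart with a mean of 5 FPKM or more are named, with CDH1, VIL1, CD79A, MBD4, E2F1, MCM4 and IDH2 added after their values were seen. Members, lists and rules were chosen with earlier results of these data known. Of the listed genes 2 had a failed estimate and 3 were not matched by symbol or identifier, and these were not used. Some listed genes are not reported here. Python 3.11.15 was used with pandas 2.3.3, numpy 2.4.6 and matplotlib 3.10.9.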

Additional observations from a re-analysis of the deposited data

How the results depend on the processing

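The number of members expressed was 8 at 1 FPKM, 9 at 0.5 FPKM and 6 at 5 FPKM, and 8 from either library alone; over the related genes the count was 106, ranging from 90 at 5 FPKM to 109 from PF alone. One member, UHRF2, was 2-fold apart with a pseudocount of 0.1 or none, with either rescaling, without the filter on the mean and with a mean of 5 FPKM; its log2 ratio ran from -1.41 to -1.19 over the planned settings. The exception was the use of the nearest bounds of the libraries, chosen after the data were seen, which left 0 members and put UHRF2 at -0.75; setting its PF estimate to the upper bound gave -1.04. Dividing out the median ratio changed the sign of TET3, TDG and DNMT3L, none of them called, and no other rescaling or pseudocount changed a sign. A pseudocount of 1 shrinks the log2 ratios of genes with low FPKM. Without it TET2 was at -0.94 and DNMT3A at 0.98 as deposited, against -0.69 and 0.75 with it. Each setting was changed alone, so whether UHRF2 stays the only member called with a smaller pseudocount and a rescaling together was not tested. No paired analysis was possible because there is 1 group. The 2 libraries allow no test, the depth is unknown, and whether TDG and TET1 share fragments with pseudogenes was not tested.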
